A study of Mus musculus with 9 samples.

Results

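Lower glycolysis was taken as the run of enzymes from aldolase to lactate dehydrogenase, listed by gene symbol: Aldoa, Aldoc, Tpi1, Gapdh, Pgk1, Pgam1, Eno1, Pkm, Ldha and Ldhb. These 10 symbols matched 11 of the 34866 gene identifiers in the deposited expression tables, because Aldoa is listed under a pair of identifiers. The cells were mouse primary macrophages grown in alpha-MEM with serum and L929-conditioned medium, which supplies the macrophage growth factor M-CSF. Of the 9 libraries, 3 came from cells kept in standard oxygen for 7 days, 3 from acute hypoxia (standard oxygen followed by 1% oxygen for 3 h) and 3 from chronic hypoxia (1% oxygen for 7 days). All groups shared the medium, and the strain, genotype, age and tissue of origin of the cells are not given in the sources used here. The series calls the libraries of a group biological replicates without saying whether they came from separate animals, so the p-values below measure the spread between these libraries. Where a code from the sample descriptions (explained below) is used as a block, they measure the spread left after differences between codes are removed. The values are TPM, a transcript level corrected for transcript length within each library, scaled so that all columns have the same sum.

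In these steps aldolase splits fructose bisphosphate into triose phosphates, which are carried through glyceraldehyde-3-phosphate dehydrogenase, phosphoglycerate kinase, phosphoglycerate mutase, enolase and pyruvate kinase to pyruvate. Lactate dehydrogenase then reduces pyruvate to lactate and returns the NAD+ that the dehydrogenase step consumed, so ATP can be made without oxygen. Several of these genes are textbook targets of the hypoxia-inducible factors (HIFs), which bind short DNA motifs near gene starts when oxygen is low. Macrophages use the pathway both under low oxygen and during inflammatory activation.

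The 8 macrophage marker genes checked were each at 1 TPM or more in all 9 libraries, but not level: Csf1r and Itgam were 1.49 and 1.42 times as high in chronic hypoxia as in standard oxygen and Cd14 was 0.709 times as high, and Mertk was at 2.21 to 3.37 TPM in the code Z libraries (defined below) against 21.8 to 33.3 in the others. All 6 fibroblast, all 5 dendritic cell, all 5 B cell and all 4 mast cell markers were below 1 TPM in every library, whereas 1 T cell marker (Cd3d) and 2 erythroid markers (Hba-a1 and Alas2) reached up to 1.27, 1.25 and 1.86 TPM in 1 library each. Markers of the neutrophil list summed to between 898 and 1595 TPM in standard oxygen, 940 to 1908 in acute hypoxia and 260 to 585 in chronic hypoxia. That sum was carried by S100a8, which macrophages can also express, while 4 of the 7 genes of the list were below 1 TPM everywhere; the part of these markers in the results was not tested. Each sample description holds 1 of 3 codes, called X, Y and Z here, and each code occurs once in every group. Values below are given in the order X, Y, Z. The code Z libraries stood apart: for each of the 9 abundant members, Z was the highest library in all 3 groups. Fewer cells of a type and less RNA per cell cannot be told apart in these bulk samples, and TPM values keep no sequencing depth, so the depth is unknown.

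The transcripts of lower glycolysis took up 0.977%, 1.04% and 1.44% of the library in standard oxygen, 1.38%, 1.47% and 1.93% in acute hypoxia, and 1.91%, 2.01% and 2.34% in chronic hypoxia. The mean share was 1.15% ± 0.249 (SD, n = 3), 1.60% ± 0.294 (SD, n = 3) and 2.08% ± 0.228 (SD, n = 3). Within each code the share was higher in acute hypoxia than in standard oxygen and higher again in chronic hypoxia, but the standard Z library was above the acute X library, so the first 2 groups overlapped. Gapdh was the most abundant member and Pkm the next in all 9 libraries, and Tpi1, Aldoc, the second Aldoa identifier and Ldhb were the least abundant in all 9. Between these ends Aldoa, Ldha, Eno1, Pgk1 and Pgam1 changed places: Aldoa was in the third place in 8 of the 9 libraries and gave it to Ldha in the acute Z library. In standard oxygen Ldha, Eno1, Pgk1 and Pgam1 all lay between 805 and 1537 TPM, and their order differed among the 3 libraries.

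**Figure D1:**
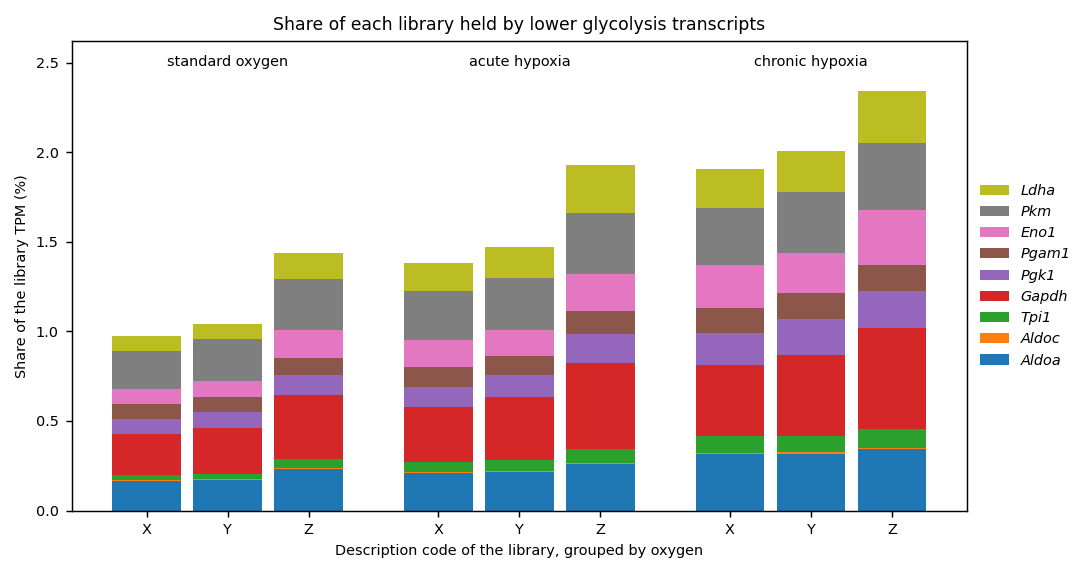
Share of each library (percent of its TPM, y axis) held by the 9 abundant lower glycolysis genes, stacked by gene, for the 9 libraries grouped by oxygen (x axis, description codes X, Y and Z). The stacks reach 0.977 to 1.44% in standard oxygen and 1.91 to 2.34% in chronic hypoxia, and the code Z library is the tallest in each group.

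To show which of these genes carry the core motif of HIF binding near their start, 1 sequence each is printed for 5 members, from RefSeq windows that hold a match and overlap no annotated exon. Windows of Eno1 and Ldhb and another one of Ldha also met this and are not printed. RefSeq gave 17 windows for the 10 symbols, some of them overlapping, and each window here is the 250 bases before a start site in GRCm38.p6. The motifs searched were ACGTG and GCGTG on both strands; ACGTG matches both strands where it lies in the palindrome CACGTG. Capitals mark the matches, and each sequence reads 5′ to 3′ on the strand of its gene. The windows are chr7:46845554-46845803 (plus strand) for Ldha, chrX:106186850-106187099 (plus) for Pgk1, chr19:41911621-41911870 (plus) for Pgam1, chr6:125165774-125166023 (minus) for Gapdh and chr7:126799255-126799504 (minus) for Aldoa.
Ldha: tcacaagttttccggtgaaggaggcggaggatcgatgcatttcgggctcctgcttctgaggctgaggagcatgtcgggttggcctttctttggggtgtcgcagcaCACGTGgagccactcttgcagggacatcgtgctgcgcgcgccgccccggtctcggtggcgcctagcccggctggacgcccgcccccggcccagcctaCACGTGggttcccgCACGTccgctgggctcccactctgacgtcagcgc
Pgk1: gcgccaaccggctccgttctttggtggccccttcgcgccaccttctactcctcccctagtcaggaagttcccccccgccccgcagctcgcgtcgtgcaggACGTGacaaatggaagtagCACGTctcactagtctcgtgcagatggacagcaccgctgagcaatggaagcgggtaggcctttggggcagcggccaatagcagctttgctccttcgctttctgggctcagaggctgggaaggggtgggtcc
Pgam1: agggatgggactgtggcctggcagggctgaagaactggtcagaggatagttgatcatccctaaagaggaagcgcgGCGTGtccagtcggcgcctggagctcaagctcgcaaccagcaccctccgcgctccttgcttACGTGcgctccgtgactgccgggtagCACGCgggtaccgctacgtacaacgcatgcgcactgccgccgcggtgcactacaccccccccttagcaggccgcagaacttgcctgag
Gapdh: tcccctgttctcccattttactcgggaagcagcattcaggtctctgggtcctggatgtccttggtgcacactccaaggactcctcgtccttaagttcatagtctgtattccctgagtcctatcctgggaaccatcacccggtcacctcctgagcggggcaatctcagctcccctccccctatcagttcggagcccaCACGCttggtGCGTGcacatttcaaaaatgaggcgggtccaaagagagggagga
Aldoa: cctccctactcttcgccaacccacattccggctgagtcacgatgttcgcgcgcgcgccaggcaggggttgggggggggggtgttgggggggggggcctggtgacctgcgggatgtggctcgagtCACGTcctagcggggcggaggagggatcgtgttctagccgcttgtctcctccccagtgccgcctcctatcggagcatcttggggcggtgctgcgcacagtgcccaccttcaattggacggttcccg
The Ldha window held 5 ACGTG matches, 4 of them from both strands of a pair of CACGTG palindromes, and the third stretch in capitals lies 30 to 34 bases before the start. Pgk1 held 2 ACGTG matches, 1 on each strand, between 127 and 150 bases before the start. Pgam1 held 1 ACGTG and 2 GCGTG matches, Gapdh held 2 GCGTG matches on opposite strands within 54 bases of the start, and Aldoa held 1 ACGTG match. The single Tpi1 window, not shown because 138 of its bases are exonic, held no match to either motif. An Aldoa window with 193 exonic bases and a Pkm window with 208 also held none. Another Pkm window held 1 ACGTG match, and each Aldoc window held 1 GCGTG match. Of the 17 windows 14 held either motif (82.4%), against 38.6% of the 32851 windows of the same length for all genes, and 6 held ACGTG (35.3%), against 16.6%. Some matches are the same site in overlapping windows: the ACGTG of Aldoa and a pair of GCGTG sites of Eno1 each counted in 2 windows. These are matches of letters, and no binding was measured here.

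Aldoa (ENSMUSG00000030695; chromosome 7, 126795234 to 126800751, minus strand, GRCm38) encodes the main aldolase of muscle and of most other cells. Its level was 1665, 1695 and 2336 TPM in standard oxygen, 2105, 2127 and 2596 in acute hypoxia, and 3152, 3154 and 3415 in chronic hypoxia. All 3 chronic libraries lay above all 6 others, and the acute libraries overlapped the standard ones. Chronic hypoxia was 1.73-fold above standard oxygen (log2 fold change 0.79, SE 0.16), with a limma adjusted p of 0.0612 that became 0.0168 with the code as a block. Chronic was 1.43-fold above acute hypoxia (log2 0.52, SE 0.13; adjusted p = 0.112, and 0.0221 with the code as a block). The acute value was 1.21-fold the standard one (log2 0.27, SE 0.17; adjusted p = 0.895) and passed in neither fit. The second identifier (ENSMUSG00000114515; chromosome 7, 126800790 to 126809108, minus strand) was at 0.122 to 2.50 TPM, and reached a mean of 1 TPM only among the 6 hypoxic libraries, where chronic and acute differed by a log2 value of 0.26 (SE 0.41; adjusted p = 0.763).

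Aldoc (ENSMUSG00000017390; chromosome 11, 78322968 to 78327781, plus strand) encodes the aldolase best known from brain. It was measured at 40.5, 46.0 and 64.4 TPM in standard oxygen, 42.3, 52.2 and 73.5 in acute hypoxia, and 85.8, 93.6 and 103 in chronic hypoxia. Standard and acute libraries of the same code were close, and the chronic libraries stood above all others. The log2 difference of acute from standard oxygen was 0.14 (SE 0.25; adjusted p = 1.00), and -0.07 without the acute Z library. Chronic hypoxia was 1.89-fold above standard oxygen (log2 0.92, SE 0.18; adjusted p = 0.0562, and 0.0128 in the blocked fit). It was 1.71-fold above acute hypoxia (log2 0.77, SE 0.20; adjusted p = 0.116, and 0.0181 with the code as a block).

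Aldoa exceeded Aldoc in every library, by 38.1-fold ± 2.66 in standard oxygen, 41.9-fold ± 7.27 in acute hypoxia and 34.5-fold ± 1.95 in chronic hypoxia (SD, n = 3 each). The ratio was lower in chronic hypoxia than in standard oxygen in 3 of 3 pairs of the same code, and lower than in acute hypoxia in 3 of 3 pairs. The first difference had a mean log2 value of -0.14 (two-sided exact permutation p = 0.2, where 3 against 3 libraries allow 0.1 at the least). For acute against standard oxygen and chronic against acute hypoxia the log2 differences were 0.13 (exact permutation p = 0.7) and -0.27 (exact permutation p = 0.2), and without the acute X library they were -0.0040 and -0.14. None of the 3 differences passed a threshold of 0.05, which this design cannot reach.

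Tpi1 (ENSMUSG00000023456; chromosome 6, 124810586 to 124814296, minus strand) encodes triosephosphate isomerase, which interconverts the products of aldolase. Its level was 282, 313 and 502 TPM in standard oxygen, 580, 641 and 758 in acute hypoxia, and 911, 938 and 1054 in chronic hypoxia. The 3 groups did not overlap at all. Tpi1 rose 2.72-fold from standard oxygen to chronic hypoxia (log2 1.44, SE 0.22; adjusted p = 0.0354), the highest fold change of the 9 members tested in that comparison. The acute value was 1.85-fold the standard one (log2 0.89, SE 0.23; adjusted p = 0.356) and also missed the threshold with the code as a block (adjusted p = 0.0547). The log2 difference in the X, Y and Z pairs was 1.04, 1.03 and 0.59, so the Z pair differed least. Chronic was 1.47-fold above acute hypoxia (log2 0.56, SE 0.14; adjusted p = 0.103, and 0.0148 with the code as a block). A stretch of 34 exonic bases overlaps Spsb2 on the opposite strand, a gene at a mean of 21.6 TPM, and whether reads were counted by strand is not given in the sources used here.

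Gapdh (ENSMUSG00000057666; chromosome 6, 125161715 to 125166467, minus strand) encodes the dehydrogenase that yields NADH, and is widely used as a reference gene in expression assays. It was at 2297, 2549 and 3552 TPM in standard oxygen, 3055, 3496 and 4834 in acute hypoxia, and 3955, 4516 and 5598 in chronic hypoxia. Chronic and standard libraries did not overlap, while acute libraries overlapped both other groups. The spread lay between codes rather than within them: the log2 difference of acute from standard oxygen was 0.41, 0.46 and 0.44 in the X, Y and Z pairs. The fold was 1.35 (log2 0.44), with an SE of 0.23 and an adjusted p of 0.833 without a block, and an SE of 0.04 and an adjusted p of 0.0384 with the code as a block. Chronic hypoxia was 1.69-fold above standard oxygen (log2 0.75, SE 0.21; adjusted p = 0.114, and 0.0125 with the code as a block). Chronic and acute hypoxia differed by a log2 value of 0.32 (SE 0.22; adjusted p = 0.458), with no call in either fit. Iffo1, at a mean of 7.93 TPM, shares 68 exonic bases with Gapdh on the opposite strand.

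Pgk1 (ENSMUSG00000062070; chromosome X, 106187100 to 106203699, plus strand) encodes the phosphoglycerate kinase that makes the pathway's first ATP. Its level was 805, 900 and 1087 TPM in standard oxygen, 1120, 1248 and 1585 in acute hypoxia, and 1786, 1992 and 2061 in chronic hypoxia. No library of 1 group reached into another group. Pgk1 rose 2.10-fold in chronic hypoxia over standard oxygen (log2 1.07, SE 0.14; adjusted p = 0.0271). The acute value was 1.41-fold the standard one (log2 0.50, SE 0.17; adjusted p = 0.572, and 0.0342 with the code as a block), with pair differences of 0.47, 0.47 and 0.54. Chronic was 1.49-fold above acute hypoxia (log2 0.58, SE 0.16; adjusted p = 0.126, and 0.0216 with the code as a block).

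Pgam1 (ENSMUSG00000011752; chromosome 19, 41911923 to 41918660, plus strand) encodes the phosphoglycerate mutase found in most tissues. It was at 839, 847 and 994 TPM in standard oxygen, 1079, 1084 and 1291 in acute hypoxia, and 1417, 1434 and 1458 in chronic hypoxia. The groups did not overlap. The mean was 1437 ± 20.7 TPM (SD, n = 3) in chronic hypoxia, against 893 ± 87.0 in standard oxygen and 1152 ± 121 in acute hypoxia. With the TPM of its pseudogenes (described below) added, the chronic libraries were at 2024, 2251 and 2253 TPM. Whether the narrow chronic spread came from how shared reads were assigned was not tested. Pgam1 rose 1.61-fold in chronic hypoxia over standard oxygen (log2 0.69, SE 0.11; adjusted p = 0.0366), a call that median-of-ratios rescaling ended (log2 0.51; adjusted p = 0.0643). For acute against standard oxygen the fold was 1.29 (log2 0.37, SE 0.12; adjusted p = 0.544), and for chronic against acute hypoxia 1.25 (log2 0.32, SE 0.12; adjusted p = 0.194). Neither passed with the code as a block, at adjusted p = 0.0610 and 0.0563.

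Eno1 (ENSMUSG00000063524; chromosome 4, 150236721 to 150248879, plus strand) encodes alpha-enolase, the enolase of most cell types, which forms phosphoenolpyruvate. Its level was 845, 878 and 1537 TPM in standard oxygen, 1510, 1448 and 2084 in acute hypoxia, and 2423, 2259 and 3103 in chronic hypoxia. The standard Z library lay above the acute X and Y libraries, and the chronic libraries were above all others. Code Z exceeded the mean of X and Y by a log2 value of 0.84 in standard oxygen, the widest gap of any abundant member in that group. Chronic hypoxia was 2.46-fold above standard oxygen (log2 1.30, SE 0.26; adjusted p = 0.0571, and 0.00921 in the blocked fit). It was 1.55-fold above acute hypoxia (log2 0.63, SE 0.20; adjusted p = 0.153, and 0.0133 with the code as a block). The acute value was 1.59-fold the standard one (log2 0.67, SE 0.27; adjusted p = 0.673) and passed in neither fit.

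Pkm (ENSMUSG00000032294; chromosome 9, 59656368 to 59679375, plus strand) encodes the pyruvate kinase that is spliced into an M1 and an M2 form, which a level per gene does not separate. It was at 2135, 2324 and 2861 TPM in standard oxygen, 2729, 2891 and 3393 in acute hypoxia, and 3176, 3377 and 3739 in chronic hypoxia. Acute libraries overlapped both other groups, and the chronic ones were above the standard ones. Chronic hypoxia was 1.41-fold above standard oxygen (log2 0.50, SE 0.15; adjusted p = 0.126, and 0.0238 with the code as a block), the lowest fold change of the 9 members tested in that comparison. With median-of-ratios rescaling, which sets the typical gene to no change, the log2 value was 0.32 and the call with the code as a block was lost (adjusted p = 0.0685). Acute against standard oxygen gave a log2 value of 0.30 (SE 0.15; adjusted p = 0.795) and chronic against acute hypoxia 0.19 (SE 0.14; adjusted p = 0.476), with no call in either fit. Another annotated gene, Gm49759, shares 767 exonic bases with Pkm on the same strand and was not analysed here.

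Ldha (ENSMUSG00000063229; chromosome 7, 46841475 to 46855627, plus strand) encodes the lactate dehydrogenase subunit that favours lactate production. Its level was 856, 880 and 1439 TPM in standard oxygen, 1616, 1745 and 2693 in acute hypoxia, and 2145, 2297 and 2882 in chronic hypoxia. Both hypoxic groups lay above standard oxygen without overlap, and they overlapped each other. At 3 h of hypoxia Ldha was 1.91-fold the standard value (log2 0.94), with pair differences of 0.92, 0.99 and 0.90. This was the highest acute fold change of the 9 members tested, but Tpi1 was above it in the X and Y pairs (1.04 and 1.03) and without the code Z libraries (1.03 against 0.95). The SE was 0.27 and the adjusted p 0.470 without a block, and the SE was 0.05 and the adjusted p 0.00871 with the code as a block. Chronic hypoxia was 2.36-fold above standard oxygen (log2 1.24, SE 0.23; adjusted p = 0.0508, and 0.00843 with the code as a block). Chronic and acute hypoxia differed by a log2 value of 0.30 (SE 0.23; adjusted p = 0.497), and by 0.41, 0.40 and 0.10 in the X, Y and Z pairs, with no call in either fit.

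Ldhb (ENSMUSG00000030246; chromosome 6, 142490249 to 142507957, minus strand) encodes the subunit of heart-type lactate dehydrogenase. It was listed at 0, 0.126 and 0.226 TPM in standard oxygen, 0, 0.131 and 0.339 in acute hypoxia, and 0.127, 0.134 and 0.114 in chronic hypoxia. The transcripts of lactate dehydrogenase in these macrophages were therefore almost all Ldha, with Ldhb listed at no more than 0.0157% of the sum of both in any library. Of its 75-base stretches 16.8% also occur in the pseudogene Gm5514, listed at 0 to 2.23 TPM, so the level of Ldhb and this limit are uncertain, though both genes were far below Ldha. Ldhb was below the mean of 1 TPM needed for a test in each comparison, and because it was listed at 0 in 2 libraries no ratio of Ldha to Ldhb was formed.

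**Figure D2:**
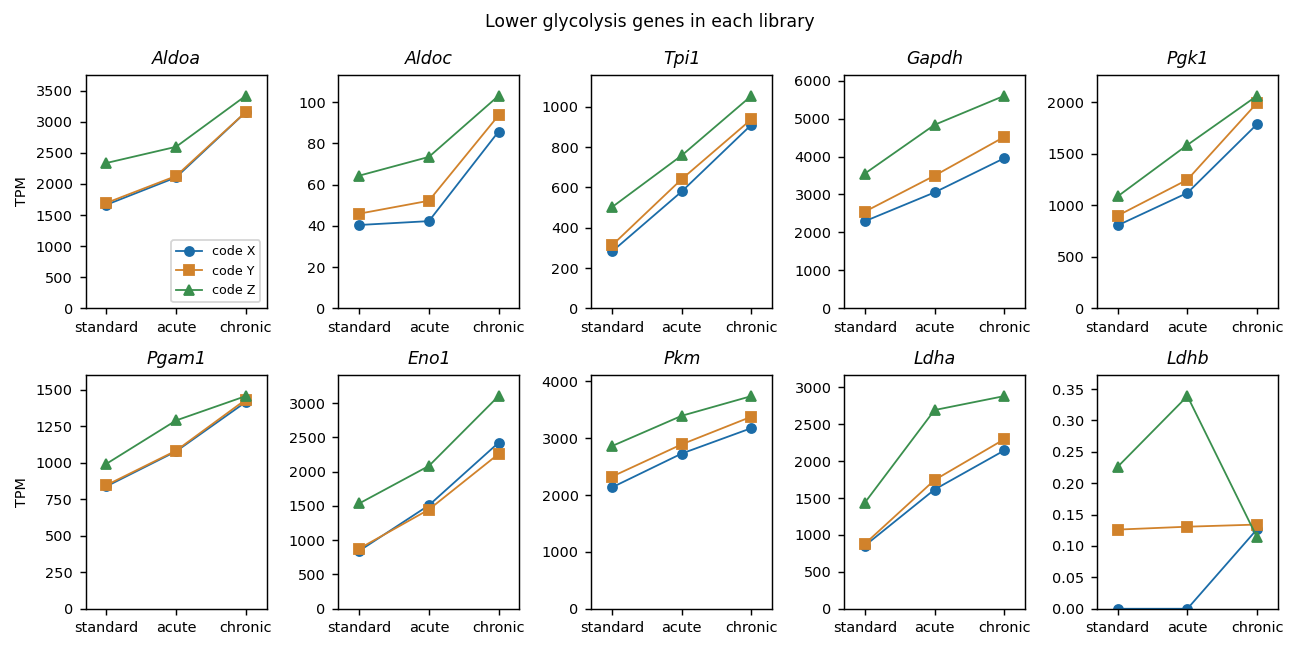
TPM (y axis, linear from 0, a separate scale for each panel) of the 10 lower glycolysis genes in each library, with the oxygen group on the x axis and lines joining libraries of the same description code. Of the 10 genes, 9 are higher at each step along every line, with code Z on top in each group; Ldhb stays under 0.34 TPM.

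Chronic hypoxia against standard oxygen gave the widest differences, and all 9 members tested were higher. Without a block 3 of 9 passed at an adjusted p under 0.05 (Tpi1, Pgk1 and Pgam1), against 2.1% of the 11067 genes tested that were called higher. With the code as a block all 9 passed, against 15.1%. The 9 also had no overlap between groups, against 24.2% of genes, and were higher in 3 of 3 pairs, against 46.9%. Their median log2 fold change was 0.92, where that of all genes tested was 0.16. The 6 that missed the threshold without a block had adjusted p-values from 0.0508 (Ldha) to 0.126 (Pkm). The count without a block rested on single libraries: it was 0 without the standard X, standard Y, chronic X or chronic Y library, and 7 without the standard Z library. Without the libraries of code Z, which left X and Y alone in each group, all 9 passed without a block. In that fit 1855 of 10924 genes tested were called higher.

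In acute hypoxia the 9 members were again higher than in standard oxygen, by 1.10 to 1.91-fold, and none passed without a block. The count was 0 of 9 in limma, against 0.0182% of the 10987 genes tested that were called higher. At an unadjusted p under 0.05 there were 5 of 9, against 785 of the 10987 genes in either direction. With the code as a block Gapdh, Pgk1 and Ldha rose, 3 of 9, against 0.655% of genes. With rescaling added to the block Ldha alone of these passed (adjusted p = 0.0130), and Gapdh and Pgk1 did not (0.0650 and 0.0548). Tpi1, Pgk1, Pgam1 and Ldha had no overlap between the groups, 4 of 9, against 7.63%. All 9 were higher in 3 of 3 pairs, against 20.9%. The median log2 fold change was 0.44 for the 9 members and 0.01 for all genes tested. Leaving out the code Z libraries gave 3 calls without a block (Tpi1, Eno1 and Ldha) and 8 with the code as a block. Only the X and Y libraries of each group remained in those fits, and 224 and 226 of 10827 genes tested were called higher.

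Between acute and chronic hypoxia all 9 abundant members were higher in chronic hypoxia, by 1.14-fold (Pkm) to 1.71-fold (Aldoc). Of 10 identifiers tested, 0 passed without a block in limma, against 0.55% of the 11087 genes tested that were called higher. An unadjusted p under 0.05 was found for 6 of the 10, against 2305 of the 11087 genes in either direction. With the code as a block Aldoa, Aldoc, Tpi1, Pgk1 and Eno1 rose, 5 of 10, against 12.1%. With rescaling added to the block Aldoa and Pgk1 no longer passed (adjusted p = 0.0652 and 0.0556). The same 5 and Pgam1 had no overlap between the groups, 6 of 10, against 22.3%, and 9 of 10, all but the second Aldoa identifier, were higher in 3 of 3 pairs, against 43.5%. Gapdh, Pgam1, Pkm and Ldha missed the threshold with the block, at adjusted p-values of 0.0662, 0.0563, 0.149 and 0.0915. Without the code Z libraries 7 passed without a block, Pgam1 and Ldha among them, against 1407 of 10952 genes tested that were called higher. Whether the later difference of 1 member exceeds that of another was not tested. The median log2 fold change was 0.42, where that of all genes tested was 0.14.

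**Figure D3:**
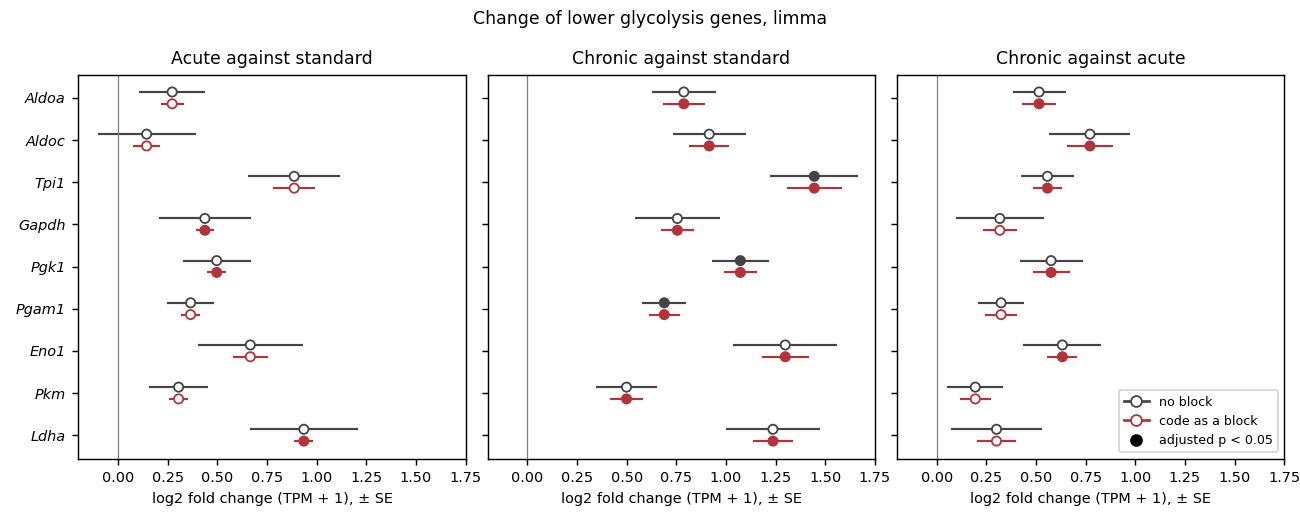
log2 fold change of TPM + 1 with its standard error (x axis) for 9 lower glycolysis genes (y axis) in the 3 comparisons, from limma without a block (grey) and with the description code as a block (red); filled points have an adjusted p under 0.05. All points lie above 0, and filled points number 0 and 3 of 9 for acute against standard, 3 and 9 for chronic against standard, and 0 and 5 for chronic against acute, without and with the block.

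Both comparisons with standard oxygen share the standard libraries, so their values are set side by side here without a test. For Ldha the log2 fold changes over standard oxygen were 0.94 in acute and 1.24 in chronic hypoxia. For Aldoc they were 0.14 and 0.92, and for Aldoa 0.27 and 0.79. Tpi1 had 0.89 and 1.44, Eno1 0.67 and 1.30, Pgk1 0.50 and 1.07. Gapdh had 0.44 and 0.75, Pgam1 0.37 and 0.69, and Pkm 0.30 and 0.50. Tpi1 was first and Pkm last of the 9 after 7 days, while after 3 h Ldha and Tpi1 exchanged the first place when the code Z libraries were left out.

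The make-up of the summed lower glycolysis transcripts, which does not depend on how a library is scaled, also differed between the groups. Ldha made up 8.76%, 8.44% and 10.0% of the sum in standard oxygen, 11.7%, 11.8% and 13.9% in acute hypoxia, and 11.3%, 11.4% and 12.3% in chronic hypoxia. Tpi1 made up 2.89%, 3.00% and 3.49% in standard oxygen, 4.19%, 4.35% and 3.93% in acute hypoxia, and 4.78%, 4.67% and 4.50% in chronic hypoxia. For both genes each hypoxic library had a larger share than any standard one. The share of Pkm was lower under hypoxia, with 21.9%, 22.3% and 19.9% in standard oxygen, 19.7%, 19.6% and 17.6% in acute hypoxia, and 16.7%, 16.8% and 16.0% in chronic hypoxia, with no overlap between the 3 groups. Eno1 went from a mean of 9.25% ± 1.25 (SD, n = 3) to 10.5% ± 0.597 and 12.4% ± 1.03, while Gapdh kept means between 22.4% and 24.2%. Shares add up to a whole, so a smaller share of Pkm goes with a higher Pkm level here. No test was made on these shares.

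Several members share sequence with processed pseudogenes, which limits what a level per gene means. Each 75-base stretch of the longest transcript, the length of 1 read, was looked up in the annotated transcripts of the other genes with deposited values. For Gapdh 22.8% of the stretches (732 of 3215) occurred elsewhere, in transcripts that included 104 pseudogenes. This percentage depends on the transcript taken, here one of 3289 bases, and was not computed for shorter Gapdh transcripts. Gm7336 was the most abundant, at 716, 513 and 689 TPM in standard oxygen, 1137, 654 and 721 in acute hypoxia, and 1600, 874 and 772 in chronic hypoxia. Gm10359 was listed at 72.6 and 182 TPM in the acute and chronic X libraries and at under 0.4 TPM in the other 7, and Gm2574 stayed between 1.41 and 6.97 TPM. The summed Gapdh pseudogenes reached 46.2% of the Gapdh level in the chronic X library. The X library of every group was the lowest for Gapdh and the highest for its summed pseudogenes. In standard oxygen the sums of X and Z were close, at 740 and 730 TPM.

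For Pgam1 40.6% of stretches were shared, nearly all with Pgam1-ps2, which was at 406, 527 and 407 TPM in standard oxygen, 505, 624 and 684 in acute hypoxia, and 606, 817 and 794 in chronic hypoxia. Pgam1-ps1 was at 0 to 0.146 TPM. For Ldha 5.23% of stretches were shared, and its pseudogenes Gm11814, Ldha-ps2 and Gm5452 were listed at 0 in all libraries apart from Gm11814 at 0.0886 TPM in 1 library.

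Pgk1 shared 67.5% of its stretches (1182 of 1751) with Pgk1-rs7 and Gm5537. Pgk1-rs7 was listed at 81.8, 0.235 and 132 TPM in standard oxygen, 97.8, 31.2 and 3.86 in acute hypoxia, and 207, 16.0 and 0.00174 in chronic hypoxia, a spread within each group that Pgk1 itself did not show. Eno1 shared 65.4%, mainly with Eno1b and Gm4735, and neither exceeded 1.48 TPM. Pkm shared 15.6% and Tpi1 2.41%, with pseudogenes under 0.7 and 2.2 TPM, while Aldoa shared 1.49% and Aldoc none. Gm49759, which overlaps Pkm, has no deposited values and was not part of this search.

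**Figure D4:**
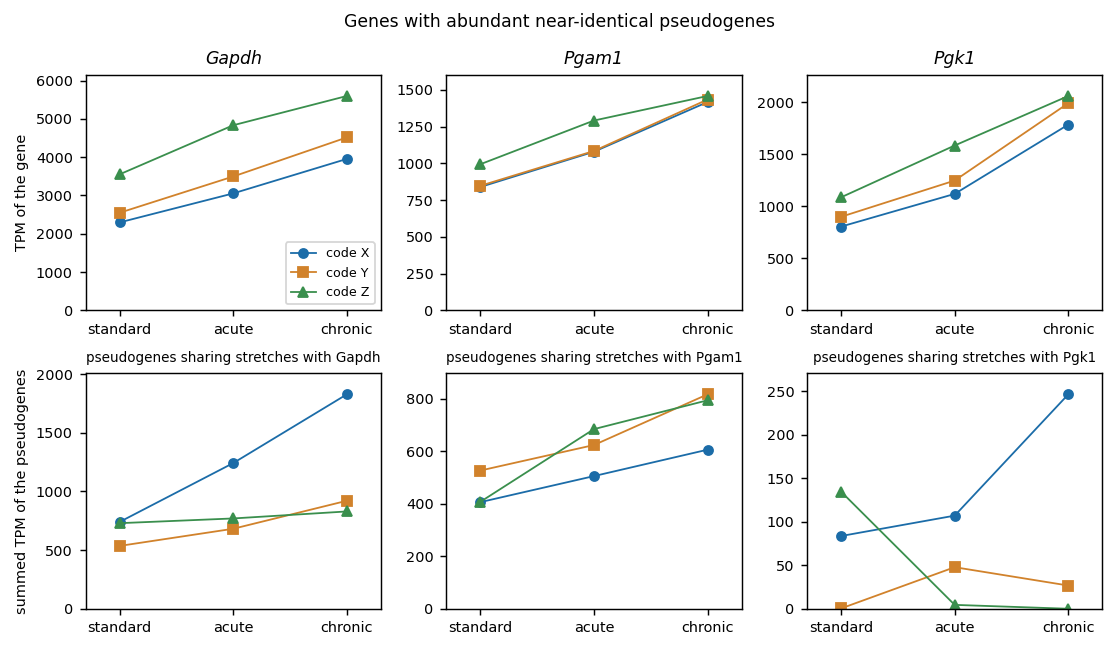
TPM of Gapdh, Pgam1 and Pgk1 (upper row) and the summed TPM of the annotated pseudogenes that share 75-base stretches with each (lower row), by oxygen group on the x axis, with lines joining libraries of the same code and separate linear scales from 0. The Gapdh pseudogene sum reaches 1828 TPM in the chronic X library, and that for Pgk1 runs from 0.00189 to 247 TPM among the chronic libraries.

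When the TPM of the shared pseudogenes was added to each gene, the log2 fold change in chronic hypoxia against standard oxygen was 0.78 for Gapdh, 1.04 for Pgk1 and 0.70 for Pgam1, close to 0.75, 1.07 and 0.69 before. In acute hypoxia the sums gave 0.44, 0.46 and 0.39. With the code as a block Gapdh still passed in that comparison (adjusted p = 0.0466), and Pgk1 no longer did (adjusted p = 0.0540). Reads that fit both a gene and its pseudogene were assigned by the processing before deposit, so the level of each alone is uncertain for Gapdh, Pgam1, Pgk1, Eno1 and Ldhb.

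Other genes of the same steps were scarce. Of 12 further isozymes, such as those of muscle, brain and testis, 7 were below 1 TPM in every library, and of the 4 tested 0 passed in any comparison, with or without the block. Pgam2, the muscle mutase, gave the highest acute log2 fold change of that list (0.82, SE 0.24; adjusted p = 0.472) and the lowest for chronic against acute hypoxia (-0.28, SE 0.17; adjusted p = 0.397). Eno3, the muscle enolase, was the lowest in acute hypoxia (-0.04, SE 0.34; adjusted p = 1.00) and the highest in both chronic comparisons (0.72 and 0.77; adjusted p = 0.275 and 0.270). Bpgm, the bisphosphoglycerate mutase, was the lowest in chronic hypoxia against standard oxygen (0.24, SE 0.16; adjusted p = 0.438). The median log2 fold changes of the 4 were 0.22, 0.45 and 0.08 in the 3 comparisons.

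The steps above aldolase were followed in 10 genes, 8 of them tested. None passed without a block in any comparison, but this depended on the libraries in the fit. Without the code Z libraries 3 passed in acute and 4 in chronic hypoxia against standard oxygen, and 2 in chronic against acute hypoxia. Leaving out the standard Z library alone gave 1 in acute and 2 in chronic hypoxia. All 9 libraries in 1 fit gave 2 in chronic hypoxia against standard oxygen. With the code as a block 2 of 8 rose in acute hypoxia, Gpi1 (glucose-6-phosphate isomerase) and Hk2 (a hexokinase), and 5 of 8 did so when chronic hypoxia was set against standard oxygen, Gpi1, Hk1, Hk2, Pfkl and Pfkp. The highest acute value was that of Hk2 (log2 1.33; adjusted p = 0.223, and 0.0482 with the block) and the lowest that of Adpgk (-0.17; adjusted p = 0.947). In chronic hypoxia against standard oxygen Pfkl was the highest (1.28; adjusted p = 0.0757, and 0.00926 with the block) and Hk3 the lowest (0.01; adjusted p = 0.986). Between chronic and acute hypoxia Gpi1 rose (0.41; adjusted p = 0.403, and 0.0259 with the block) and Hk2 fell (-0.72; adjusted p = 0.210, and 0.0298 with the block), whereas no lower glycolysis identifier tested was lower in that comparison.

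Of 8 genes that carry glucose, lactate or pyruvate across membranes 7 were tested. Slc2a1, the GLUT1 glucose carrier, was the only one of them called without a block, rising in chronic hypoxia against standard oxygen (log2 1.51, SE 0.13; adjusted p = 0.00770). The list had 0 calls in that comparison without the standard X, standard Y or chronic Y library, 4 without standard Z, 2 without chronic Z, 5 without all code Z libraries and 4 with all 9 libraries in 1 fit. It was also the highest in acute hypoxia (1.88; adjusted p = 0.125, and 0.0299 with the block), where Mpc1 was the lowest (-0.13; adjusted p = 1.00). Slc16a3, the lactate exporter MCT4, had log2 values of 1.79 in acute hypoxia (adjusted p = 0.273, and 0.0489 with the block) and 1.88 in chronic hypoxia (adjusted p = 0.0651, and 0.0149 with the block). Mpc2, a subunit of the mitochondrial pyruvate carrier, was the lowest in both chronic comparisons, at -0.46 against standard oxygen (adjusted p = 0.455, and 0.0226 with the block) and -0.50 against acute hypoxia (adjusted p = 0.395, and 0.0151 with the block). Bsg, the partner of the lactate carriers, passed only with the block in both chronic comparisons, and Slc2a6 was the highest between chronic and acute hypoxia (0.92; adjusted p = 0.0916).

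Of 12 genes at branches that leave lower glycolysis 10 were tested, and Pdk1, the kinase that holds pyruvate back from the mitochondrial dehydrogenase, was the one called without a block. Its log2 values were 0.79 in acute hypoxia (adjusted p = 0.0568, and 0.0299 with the block), 1.47 in chronic hypoxia against standard oxygen (adjusted p = 0.00482) and 0.68 between chronic and acute hypoxia (adjusted p = 0.0448). The last call was lost with no filter on low values, no trend, each of the 3 other scalings, and in 5 of 6 fits that left out 1 library, all but that without chronic Z. The call over standard oxygen was lost without the chronic Y library. Pcx, pyruvate carboxylase, was the lowest over standard oxygen (-0.25 and -0.33; adjusted p = 0.973 and 0.483) and Gpd2 the lowest between the hypoxic groups (-0.11; adjusted p = 0.820). Psat1, a step of serine synthesis, passed only with the block, in chronic hypoxia against standard oxygen (0.50; adjusted p = 0.0342).

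Genes with a pattern like that of the members were ranked among 7098 non-member genes with a mean of at least 10 TPM, by Pearson r over the 9 libraries with the median of the z-scored members. As measured, the first 5 were Samd9l (0.99), Ensa (0.98), Papss1 (0.98), Prelid1 (0.98) and Bsg (0.98), and in all of them code Z was the highest library of each group. After subtracting the mean of each code the genes of highest r included Xpo1 (1.00), Egln3 (0.99), Klhl9 (0.99) and Rab31 (0.99). Egln3, a HIF prolyl hydroxylase, ran from 16.5 ± 12.3 TPM in standard oxygen to 151 ± 69.4 in acute and 538 ± 23.8 in chronic hypoxia (SD, n = 3 each). None of these 4 was among the first 5 as measured. The 9 libraries share their groups and codes, so these values of r are descriptions.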

How the data were processed

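RNA from 9 samples was sequenced as 75-base read pairs, per the labels' protocols. The authors deposited TPM values per gene; STAR, featureCounts, FastQC and GRCm38 are named in the submitters' processing notes without roles, and the program that made the TPM is not given in the sources used here. All 9 libraries occur in a pair of tables with equal values. Of 34866 gene identifiers 34582 matched GENCODE annotation of GRCm38, which gave symbols, positions and transcripts; RefSeq (GRCm38.p6) gave the windows before start sites.

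limma (3.58.1, R 4.3.3) was fitted to log2(TPM + 1) of the 6 libraries compared, with a variance trend, over genes with a mean of at least 1 TPM, without a block; p-values were Benjamini-Hochberg adjusted over all genes tested, with a threshold of 0.05. Fold changes on this scale understate low genes. The fit was also run on simulated data with 200 changed genes, normal noise and a code Z shift alike in all groups. Such data hold the structure that the block assumes, so the outcome is not used here. TPM carries no depth, so no counting interval was formed.

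Whether labels pair libraries was checked by correlating deviations from group means over 11065 genes. For the description code all 9 same-code pairs correlated, with r from 0.378 to 0.633. The code was taken to pair them, and its values are given where they change a call. Deviations are from group means, so a Z library that stands apart shifts those of X and Y alike. X libraries were not set against Y libraries of other groups, so the check cannot show that X and Y are each paired rightly. For the number in the titles r ran from -0.515 to 0.633. Its pairs for replicate 1, and all between the hypoxic groups, are the same library pairs as for the code.

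The members and gene lists were chosen with earlier results of these data known. All members are named; of each further list the genes named are those with the highest and the lowest change per comparison and each that passed, and the pseudogenes named are the 3 of highest mean TPM for Gapdh, Pgam1 and Ldha. Those of Pgk1 and Eno1, and list genes called only with the block, were named after their values were seen. In the ranking by likeness 1 gene is not reported here. Alternatives changed the pseudocount, filter, trend, scaling, block and libraries.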

Additional observations from a re-analysis of the deposited data

How the results depend on the processing

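Over the members tested and their alternatives, 506 of the values for single genes kept their direction and side of the threshold, 111 came to pass it, 20 no longer passed it and 1 reversed: Aldoc in acute hypoxia, whose log2 change ran from -0.0671 to 0.33 when 1 library was left out, the first value without acute hypoxia replicate 3 (the cause was not tested). The number of members called in acute hypoxia against standard oxygen was 0; it became 3 without the code Z libraries, and stayed at 0 when any 1 library was left out. In chronic hypoxia against standard oxygen it was 3, and became 2 with median-of-ratios rescaling or no trend, 4 with a pseudocount of 0.1 or quantile normalization, 0 with no filter on low values, 6 with a mean of at least 5 TPM, 7 with all 9 samples in 1 fit, 9 without the code Z libraries, and 0 to 7 when 1 library was left out. In chronic against acute hypoxia it was 0, and became 7 without the code Z libraries. Over all genes the calls of higher level also rose without code Z, from 2 to 224, from 232 to 1855 and from 61 to 1407. The cause of these shifts was not tested, beyond there being fewer genes or libraries in some.

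With the description code as a replicate block the 3 counts were 3, 9 and 5. They were 1, 8 and 3 with the code block and median-of-ratios rescaling, 5, 9 and 7 with the code block and all 9 samples in 1 fit, and, in alternatives chosen after seeing the data, 2, 9 and 5 with the code block and pseudogene TPM summed and 8, 9 and 9 with the code block and no code Z libraries. With the code block and no code Z libraries, 226 of 10827, 3061 of 10924 and 2148 of 10952 genes tested were called higher. With the title number as the block the member counts were 0, 0 and 5, and between the hypoxic groups that pairing equals the code. Rescaling moved the chronic log2 changes over standard oxygen down by slightly more than the all-gene median of 0.16, to between 0.32 (Pkm) and 1.26 (Tpi1), all above 0. The planned ratio of Ldha to Ldhb gave no value because Ldhb was listed at 0 in 2 libraries.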
